A study of Mus musculus with 16 samples.

Results

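Transcripts of 10 genes whose protein products are used as surface antigens of adipose progenitors were followed across genotype and fat depot. The genes were Ly6a, Ly6c1, Cd34, Cd24a, Itgb1, Thy1, Dlk1, Eng, Nt5e and Cd9, and they were taken by symbol from the deposited count table. They made up 10 of the 38720 lines of that table, and all 10 were among the 16842 genes that passed a filter on low counts. The samples were adipose progenitors, the fat-resident precursors of adipocytes, from mice 4 weeks old. Visceral (VAT) and subcutaneous (SAT) fat was taken from Nr4a1 knockout mice (KO), labelled B6;129S2-Nr4a1tm1Jmi/J, and from wild-type mice (WT) on C57BL/6J. The strain label reads C57BL/6J for KO as well, so KO and WT may also differ in background DNA, litter and day of preparation, and these cannot be told apart from the genotype. Each of the 4 groups (KO VAT, WT VAT, KO SAT, WT SAT) held 4 RNA sequencing libraries. The design text calls them biological replicates without saying that each came from its own animal, so p-values measure the spread between these libraries, which may be technical. The column names carry the word MACS, a magnetic bead sort, and whether any of the 10 antigens served to select the cells is not given in the sources used here.

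Library totals ran from 35761196 to 43984232 counts in KO VAT, from 42383156 to 46293781 in WT VAT, from 44181663 to 55551845 in KO SAT and from 34655519 to 49437944 in WT SAT. Levels are given as CPM, that is counts scaled to one common library size after a TMM correction, which adjusts for differences in RNA composition between libraries. The targeted gene Nr4a1 (chromosome 15, 101254269 to 101274795), an orphan nuclear receptor, stood at 297, 327, 304 and 307 CPM in KO VAT, against 1649, 1432, 1481 and 1581 CPM in WT VAT. In SAT it stood at 202, 209, 195 and 199 CPM in KO, against 1212, 1121, 1018 and 997 CPM in WT, so every library matched its genotype label. The counts do not show which part of Nr4a1 the remaining KO reads cover. Pdgfra, a receptor that marks adipose progenitors, lay between 470.3 and 961 CPM in all 16 libraries. The leukocyte gene Ptprc lay at 4.84 to 15.1 CPM and the endothelial gene Pecam1 at 0.569 to 2.23 CPM. Not all markers of other cell types were this low. In VAT the pericyte gene Rgs5 ran from 602 to 1042 CPM, above Pdgfra in every VAT library, and the mesothelial gene Upk3b from 291 to 622 CPM. Summed over 13 endothelial genes, the level ran from 177 to 352 CPM over all libraries.

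Surface antigens let progenitors be picked out of the mixed cells of fat by antibody. In mouse fat the usual progenitor gate combines stem cell antigen 1 (the Ly6a product), CD34 and the integrin chain CD29 (the Itgb1 product), and CD24 separates an earlier progenitor from a more committed preadipocyte. Several of these proteins, among them the products of Ly6a, Ly6c1, Thy1, Cd24a and Nt5e, hang on the cell surface by a lipid anchor, while CD34, CD29, endoglin, CD9 and the Notch-like protein DLK1 span the membrane.

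Promoter sequences are shown for the 3 genes with the largest depot differences in either genotype among members that have one, Ly6c1 and Cd34 on the side of SAT and Nt5e on the side of VAT. The sequences are from RefSeq (GRCm38.p6, the assembly of the mm10 build named in the submitters' processing notes), and each runs from 250 bases before to 50 bases after the start of the gene in RefSeq. For Nt5e that start lies downstream of the GENCODE one, so its window lies wholly inside the GENCODE gene. The table matched 7 of the 10 members. Capitals mark AGGTCA, the core site of many nuclear receptors, the TATA box TATAAA and the GC box GGGCGG, on either strand.

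Ly6c1 (chr15:75048788-75049087, minus strand): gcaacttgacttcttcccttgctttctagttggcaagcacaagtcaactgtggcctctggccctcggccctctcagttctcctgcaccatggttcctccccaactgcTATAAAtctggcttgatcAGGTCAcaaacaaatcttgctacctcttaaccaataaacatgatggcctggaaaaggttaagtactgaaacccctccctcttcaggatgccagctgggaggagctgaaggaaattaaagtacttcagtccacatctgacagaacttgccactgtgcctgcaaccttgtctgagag

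Cd34 (chr1:194938571-194938870, plus strand): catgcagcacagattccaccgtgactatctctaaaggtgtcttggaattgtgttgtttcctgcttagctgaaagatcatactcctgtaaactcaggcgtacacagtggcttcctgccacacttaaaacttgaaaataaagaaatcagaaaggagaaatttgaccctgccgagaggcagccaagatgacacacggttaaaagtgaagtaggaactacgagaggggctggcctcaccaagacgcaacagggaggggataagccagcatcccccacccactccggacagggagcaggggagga

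Nt5e (chr9:88327359-88327658, plus strand): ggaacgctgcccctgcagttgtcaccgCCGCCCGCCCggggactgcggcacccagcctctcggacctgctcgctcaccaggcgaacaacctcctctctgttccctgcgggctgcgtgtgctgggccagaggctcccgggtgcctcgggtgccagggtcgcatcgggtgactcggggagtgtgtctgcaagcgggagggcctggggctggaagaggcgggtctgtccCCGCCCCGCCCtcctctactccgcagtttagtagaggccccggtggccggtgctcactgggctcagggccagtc

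The Ly6c1 window shown, 1 of 2 for this gene, was 49% G and C with 1 CpG, and held 1 TATAAA and 1 AGGTCA. That TATAAA lies before the AGGTCA, which begins at base 126, so both lie well upstream of the gene start. The second Ly6c1 window, not shown, was 53.7% G and C with 0 CpG and held none of the marked motifs. The Nt5e window was 71% G and C with 23 CpG and held 4 GC boxes, of which neighbours overlap or adjoin, and the Cd34 window was 50% G and C with 7 CpG and held none of these motifs. Of 32851 mouse promoter windows of 300 bases, 13.6% held TATAAA, 16.3% AGGTCA and 35.7% GGGCGG. AAAGGTCA, the element bound by the NR4A receptors, which contains AGGTCA, was in 1.51% of all windows and in none of the 8 windows of the 7 matched members. These matches describe letters in a window and show no binding.

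The 10 genes lie on 8 chromosomes (GENCODE vM21, GRCm38), and positions refer to whole genes with exons, introns and UTRs. Ly6a (chromosome 15, 74994877 to 74998031) and Ly6c1 (chromosome 15, 75044018 to 75048830) are neighbours in the Ly6 cluster, 26.3 and 26.2 Mb from Nr4a1 on the same chromosome. Of the distinct stretches of 75 bases in Ly6c1 transcripts, 19% also occur in transcripts of other genes, chiefly of Ly6c2 and also of Ly6a. For Ly6a this share was 6.33%, so reads of this pair may be split or dropped, depending on how reads that map to several places were counted. Ly6c2 itself had 0.136 to 1.3 CPM. Cd9 (chromosome 6, 125460266 to 125494791) shares 7.63% of its stretches with other genes, chiefly with Gm26728, which overlaps it on the opposite strand. Cd34 (chromosome 1, 194938819 to 194961279) overlaps the antisense gene Gm16897 and shares 1.04%, and Eng (chromosome 2, 32646595 to 32682669) overlaps Fpgs on the opposite strand. The library kit does not mark strand, so reads of such partners cannot be told apart from those of the members. Cd24a (chromosome 10, 43578284 to 43584265) shares 1.1% with Gm6212. Itgb1 (chromosome 8, 128685654 to 128733200), Thy1 (chromosome 9, 44043384 to 44048579), Dlk1 (chromosome 12, 109452823 to 109463336) and Nt5e (chromosome 9, 88327197 to 88372092) share none.

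Ranked per length, as CPM per kilobase of annotated exon, Ly6a stood first in all 4 groups and Dlk1 last. Ly6a averaged 291 ± 17.3 CPM per kilobase in KO VAT, 336 ± 21.9 in WT VAT, 1128 ± 108 in KO SAT and 1197 ± 373 in WT SAT (SD, n = 4 each). In SAT the order below it was Ly6c1, Cd34, Itgb1, Thy1, Cd9 and Eng in both genotypes. These members averaged 299.5, 226, 183, 130.3, 49.3 and 18.9 CPM per kilobase in KO SAT, against 298, 185, 175, 110.7, 59.0 and 21.8 in WT SAT. The lowest 3 places went to Nt5e, Cd24a and Dlk1, at 5.30, 4.12 and 2.27 CPM per kilobase in KO SAT, against 4.2, 5.41 and 3.0 in WT SAT. In VAT, Itgb1 and Cd34 came next, ahead of Ly6c1. Itgb1 averaged 206 and 223, Cd34 100.7 and 113, and Ly6c1 57.1 and 60.7 CPM per kilobase in KO VAT and WT VAT. Next in VAT came Cd9 with 54.5 and 59.0, Thy1 with 45.9 and 39.7, Eng with 24.7 and 26.4, Nt5e with 9.05 and 8.46, Cd24a with 5.85 and 2.74 and Dlk1 with 2.47 and 1.74 CPM per kilobase in KO VAT and WT VAT.

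Most neighbours in this order did not overlap in their range over libraries. Those that overlapped were Ly6c1 with Cd9, Cd9 with Thy1, Nt5e with Cd24a and Cd24a with Dlk1 in KO VAT, and Ly6c1 with Cd9 in WT VAT. In KO SAT only Nt5e and Cd24a overlapped. In WT SAT Cd34 overlapped Itgb1, Cd24a overlapped Nt5e, and Nt5e overlapped Dlk1. The values depend on the length used: per kilobase of the longest annotated transcript Cd34 averaged 539 and Nt5e 11.4 CPM in KO SAT.

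**Figure D1:**
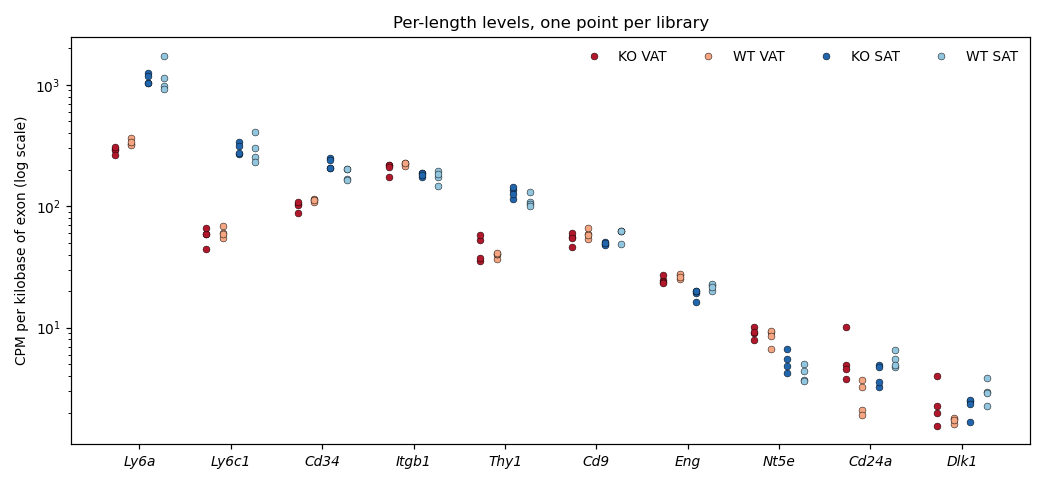
Level of each antigen transcript per length, in CPM per kilobase of exon on a log axis, with 1 point per library and colours for KO VAT, WT VAT, KO SAT and WT SAT, genes ordered by their mean in KO SAT. Ly6a is highest in every group, and the SAT points of Ly6a, Ly6c1, Cd34 and Thy1 lie above all VAT points of the same gene.

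Depot was compared within each genotype. In both genotypes Ly6a, Ly6c1, Thy1 and Cd34 were lower in VAT than in SAT, and Eng and Nt5e were higher. Between KO VAT and KO SAT 6 of the 10 members were called at adjusted p under 0.05, 2 higher and 4 lower in VAT. Of all tested genes 43.3% were called, 23.3% higher and 20.0% lower, and the CPM ranges of 6 members, as of 45.6% of all tested genes, did not overlap. Between WT VAT and WT SAT 9 of 10 were called, 3 higher and 6 lower in VAT. Of all tested genes 36.7% were called, 19.1% higher and 17.6% lower, and the ranges of 9 members, as of 34.1% of all tested genes, did not overlap. Adjusted p is that of edgeR's quasi-likelihood test with Benjamini-Hochberg adjustment over all 16842 genes, and fold changes are on the log2 scale with their standard error. The members' median log2 difference was 0.13 in KO and -0.75 in WT, beside 0.02 and -0.00 over all tested genes. In such bulk samples fewer cells that carry a transcript and less of it per cell cannot be told apart.

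**Figure D2:**
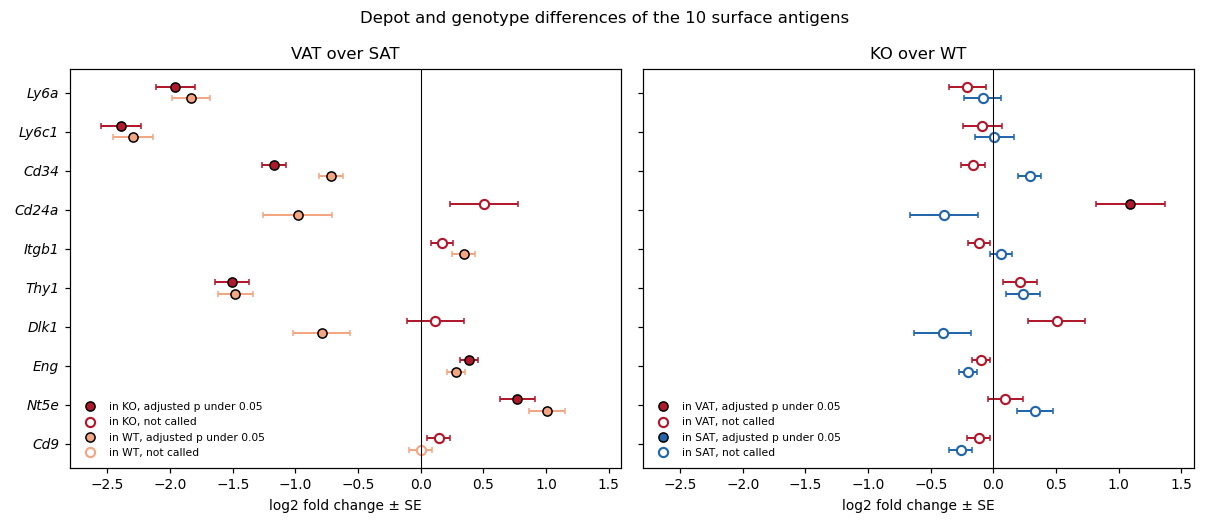
Log2 fold changes with SE of the 10 antigen transcripts, VAT over SAT on the left (in KO and in WT) and KO over WT on the right (in VAT and in SAT), filled where adjusted p was under 0.05. On the left Ly6a, Ly6c1, Cd34 and Thy1 lie below 0 and Nt5e and Eng above it in both genotypes, and on the right Cd24a in VAT is the only filled point.

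The Ly6 pair showed the largest depot differences among the 10. Ly6a, which encodes stem cell antigen 1, stood at 356, 352, 371 and 321 CPM in KO VAT, against 1251, 1507, 1249.6 and 1429.8 CPM in KO SAT. In WT it stood at 441, 389, 382 and 406 CPM in VAT, against 1384, 1175, 2093 and 1117 CPM in SAT. Every VAT library lay below every SAT library, and WT SAT replicate 3 stood highest of all 16. The difference was -1.96 ± 0.15 in KO (adjusted p = 2.15e-08) and -1.83 ± 0.15 in WT (adjusted p = 5.40e-08), a VAT level of 0.258 and 0.281 times that of SAT. Ly6c1, whose product is a lipid-anchored Ly6C protein, stood at 99.8, 98.4, 110.6 and 74.3 CPM in KO VAT, against 454, 567, 463 and 525 CPM in KO SAT. The WT values were 115, 101, 91.0 and 99.9 CPM in VAT, against 508, 423, 681 and 385 CPM in SAT. The groups did not overlap in either genotype, and the highest library was again WT SAT replicate 3. The difference was -2.39 ± 0.16 in KO (adjusted p = 3.73e-09) and -2.29 ± 0.16 in WT (adjusted p = 6.67e-09).

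Thy1 encodes CD90, a lipid-anchored antigen of stromal cells, neurons and T cells. It stood at 105, 158, 174 and 113 CPM in KO VAT, against 344, 406, 377 and 436 CPM in KO SAT. In WT it stood at 110.6, 120.2, 121 and 123 CPM in VAT, against 322, 315, 390.3 and 299 CPM in SAT. All VAT libraries lay below all SAT libraries, and the KO VAT libraries were spread more widely than those of WT VAT. The difference was -1.51 ± 0.14 in KO (adjusted p = 1.46e-07) and -1.48 ± 0.14 in WT (adjusted p = 2.28e-07). Cd34 encodes a sialomucin of blood stem cells, endothelium and fat progenitors. Its level was 763, 744, 791 and 640.2 CPM in KO VAT, against 1498, 1829, 1519 and 1755 CPM in KO SAT. In WT its level was 841, 818, 798 and 828 CPM in VAT, against 1475, 1230.1, 1484 and 1208 CPM in SAT. The depots did not overlap in either genotype. The difference was -1.17 ± 0.09 in KO (adjusted p = 3.13e-08) and -0.72 ± 0.09 in WT (adjusted p = 1.08e-05).

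Nt5e and Eng ran the other way. Nt5e encodes CD73, the enzyme that makes adenosine from AMP outside the cell. It stood at 77.6, 86.5, 68.5 and 78.7 CPM in KO VAT, against 47.3, 57.0, 36.3 and 41.6 CPM in KO SAT. The WT levels were 79.7, 80.6, 73.3 and 57.7 CPM in VAT, against 43.5, 38.1, 31.6 and 31.2 CPM in SAT. The lowest VAT library lay above the highest SAT library in both genotypes, although by little. The difference was 0.77 ± 0.14 in KO (adjusted p = 0.000249) and 1.01 ± 0.14 in WT (adjusted p = 2.26e-05), a VAT level 1.71 and 2.01 times that of SAT. Eng encodes endoglin, a co-receptor for TGF-beta and BMP ligands that is also abundant on endothelium. Its level was 99.7, 109.6, 96.0 and 94.5 CPM in KO VAT, against 78.3, 66.4, 81.0 and 80.5 CPM in KO SAT. In WT it was 109, 111, 103 and 105 CPM in VAT, against 81.6, 90.9, 92.1 and 87.7 CPM in SAT. The depots did not overlap in either genotype, and the difference was 0.38 ± 0.07 in KO (adjusted p = 0.000332) and 0.28 ± 0.07 in WT (adjusted p = 0.00512).

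Itgb1, Cd24a and Dlk1 were called between depots in WT and not in KO. Itgb1 encodes the beta chain shared by most matrix-binding integrins. It stood at 898, 894, 859 and 709 CPM in KO VAT, against 763, 717, 762 and 741 CPM in KO SAT. In WT it stood at 914, 926, 870.1 and 923 CPM in VAT, against 716, 800.4, 601 and 747 CPM in SAT. Only KO VAT replicate 4 fell among the SAT values. The difference was 0.17 ± 0.09 in KO (adjusted p = 0.135, 95% interval -0.02 to 0.36) and 0.34 ± 0.09 in WT (adjusted p = 0.00595). Without KO VAT replicate 4, Itgb1 was called in KO as well, at 0.24 (adjusted p = 0.0252). Whether the depot difference of Itgb1 depends on genotype was not shown (interaction -0.17 ± 0.13, adjusted p = 0.504).

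Cd24a encodes a small, heavily sugared, lipid-anchored protein of early fat progenitors that epithelial, red and B cells carry too. It stood at 9.74, 12.7, 11.8 and 26.2 CPM in KO VAT, against 8.40, 12.6, 12.3 and 9.16 CPM in KO SAT. WT values were 5.46, 9.53, 8.39 and 4.90 CPM in VAT, against 16.8, 14.2, 12.2 and 12.6 CPM in SAT. WT VAT lay wholly below WT SAT, and the KO depots overlapped. The difference was 0.51 ± 0.27 in KO (adjusted p = 0.145, 95% interval -0.07 to 1.08) and -0.98 ± 0.28 in WT (adjusted p = 0.00946). Without KO VAT replicate 4 the KO value of Cd24a was 0.10 (adjusted p = 0.74). Dlk1 encodes preadipocyte factor 1, whose shed outer part holds back adipocyte formation. Its level was 8.83, 12.9, 11.3 and 22.8 CPM in KO VAT, against 14.1, 9.51, 14.4 and 13.3 CPM in KO SAT. In WT it was 10.04, 9.15, 10.2 and 9.84 CPM in VAT, against 16.6, 22.0, 16.5 and 12.9 CPM in SAT. As for Cd24a, WT VAT lay below WT SAT, and the KO depots overlapped around a high KO VAT replicate 4. The difference was 0.12 ± 0.23 in KO (adjusted p = 0.71) and -0.79 ± 0.23 in WT (adjusted p = 0.0116). Without KO VAT replicate 4 the KO value of Dlk1 turned to -0.23, still not called.

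Cd9, a tetraspanin that groups other membrane proteins into patches, was not called between depots. It stood at 115, 95.2, 123 and 112 CPM in KO VAT, against 99.6, 104, 98.0 and 102 CPM in KO SAT. In WT it stood at 119.9, 109, 119 and 134 CPM in VAT, against 99.5, 128, 127 and 127 CPM in SAT. The depots overlapped in both genotypes. The difference was 0.14 ± 0.09 in KO (adjusted p = 0.224) and 0.00 ± 0.09 in WT (adjusted p = 0.999), with 95% intervals of -0.05 to 0.34 and -0.19 to 0.19.

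**Figure D3:**
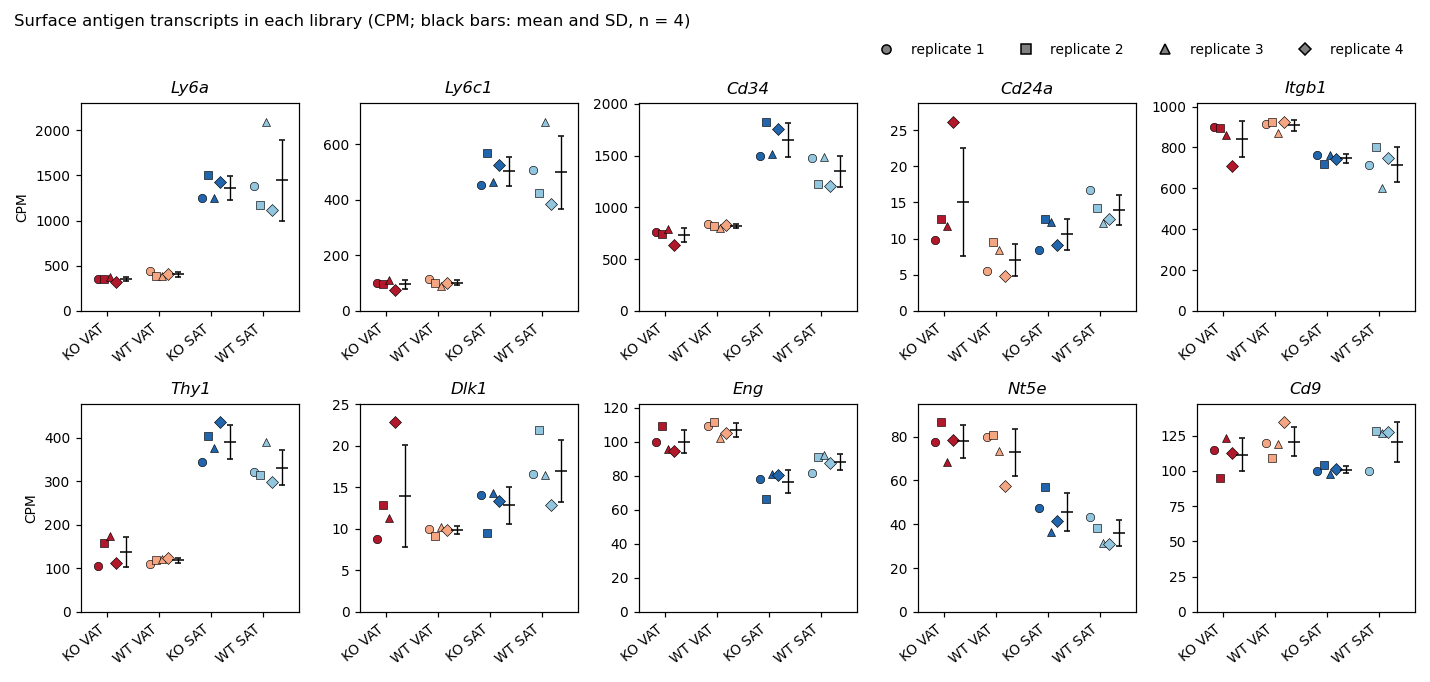
CPM of each antigen transcript in every library, with symbols for replicates 1 to 4 and black bars for mean and SD (n = 4), ordered KO VAT, WT VAT, KO SAT and WT SAT. Ly6a, Ly6c1, Cd34 and Thy1 separate the depots without overlap, as do Eng and Nt5e by a narrower gap. Cd24a and Dlk1 have their highest VAT value in KO VAT replicate 4 (26.2 and 22.8 CPM). WT SAT replicate 3 is highest for Ly6a (2093 CPM) and Ly6c1 (681 CPM).

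Markers of other cell types also differed between depots. The summed level of 11 mesothelial genes ran from 836 to 1594 CPM in KO VAT and from 841 to 1618 CPM in WT VAT, against 8.36 to 11.8 CPM in KO SAT and 8.70 to 14.5 CPM in WT SAT. The mesothelial genes Msln and Upk3b were close to 0 in SAT, at up to 0.801 and 0.300 CPM, against 132 to 294 and 291 to 622 CPM in VAT. For 12 pericyte and smooth muscle genes the sum ran from 5351 to 6824 CPM in KO VAT and from 5737 to 6207 CPM in WT VAT, against 2309 to 3207 CPM in KO SAT and 2898 to 4847 CPM in WT SAT. The 8 Schwann cell genes went the other way, at 43.1 to 64.1 CPM in KO VAT and 57.2 to 74.9 CPM in WT VAT, against 374 to 510.1 CPM in KO SAT and 426 to 773 CPM in WT SAT. For 13 endothelial genes, a cell type rich in Eng and Cd34, the sums were 177 to 199 CPM in KO VAT and 213 to 237 CPM in WT VAT, against 281 to 352 CPM in KO SAT and 252 to 296 CPM in WT SAT. These sums follow Tek, an angiopoietin receptor gene, which averaged 62.9 CPM in KO VAT and 78.4 CPM in WT VAT, against 248 CPM in KO SAT and 205 CPM in WT SAT. By gene, 5 of the 12 endothelial genes tested were higher and 2 lower in VAT in KO, and 4 were higher and 2 lower in WT, with medians of 0.92 and 0.66. Pecam1 was among the higher ones, at 1.2 in KO (adjusted p = 0.000917) and 1.24 in WT (adjusted p = 0.000887). None of these 4 lists had a gene at 0 in every library. Pdgfra, at 470.3 to 581 CPM in KO VAT and 752 to 795 CPM in KO SAT, was lower in VAT in KO (-0.58, adjusted p = 0.000818). In WT it ran from 584 to 768 CPM in VAT and from 595 to 961 CPM in SAT and was not called (-0.28, adjusted p = 0.0806). The part of these cell types in the members' depot differences was not tested.

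Genotype was compared within each depot. Between KO SAT and WT SAT none of the 10 was called, where 5.89% of all tested genes were called, 3.46% higher and 2.43% lower. Their log2 differences ran from -0.40 to 0.33 with a median of -0.04, beside -0.01 over all tested genes. At an unadjusted p under 0.05 there were 4, Cd34 and Nt5e higher and Eng and Cd9 lower in KO, where 22.5% of all tested genes passed that mark. The count of called members was 1 by DESeq2 (Cd34) and 0 by limma-voom, whose shares over all tested genes are not given here. Cd34 averaged 1650.2 ± 167 CPM in KO SAT and 1349 ± 151 CPM in WT SAT (SD, n = 4 each), a difference of 0.29 ± 0.09 (adjusted p = 0.0787). Its 4 KO libraries lay above the 4 WT libraries, and without WT SAT replicate 3 it was called at 0.34 (adjusted p = 0.0458). Over all tested genes that library lay farther from the other WT SAT libraries than those did from each other. Eng averaged 76.6 ± 6.83 CPM in KO SAT and 88.1 ± 4.71 CPM in WT SAT, lower by 0.20 without overlap (-0.20 ± 0.07, adjusted p = 0.111). Such separation, met here by 2 members, was found for 14.7% of all tested genes. Cd9 averaged 101 ± 2.58 CPM in KO SAT and 121 ± 14.1 CPM in WT SAT (-0.26 ± 0.09, adjusted p = 0.109), and without WT SAT replicate 1, its only low WT library, it was called at -0.34 (adjusted p = 0.0308). Nt5e averaged 45.6 ± 8.85 CPM in KO SAT and 36.1 ± 5.87 CPM in WT SAT, a difference of 0.33 ± 0.14 with overlap (adjusted p = 0.175).

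The other 6 members gave no call in KO SAT either. Ly6a averaged 1359 ± 130 CPM in KO SAT and 1442 ± 449 CPM in WT SAT (-0.09 ± 0.15, 95% interval -0.40 to 0.23). Ly6c1 averaged 502 ± 53.3 CPM in KO SAT and 499 ± 132 CPM in WT SAT (0.01 ± 0.15, 95% interval -0.32 to 0.33). WT SAT replicate 3 stood above the other WT libraries in both genes, and without it the differences became 0.15 for Ly6a and 0.19 for Ly6c1, neither called. Thy1 was at 0.24 ± 0.14 (95% interval -0.05 to 0.52) and Itgb1 at 0.06 ± 0.09 (95% interval -0.13 to 0.25). Cd24a was at -0.40 ± 0.27 (95% interval -0.97 to 0.18) and Dlk1 at -0.40 ± 0.23 (95% interval -0.88 to 0.08). These intervals leave room for a decrease of Cd24a or Dlk1 in KO SAT by more than 0.5 on the log2 scale. For Thy1 they leave room for an increase slightly above 0.5.

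In VAT the 1 member called between genotypes was Cd24a, higher in KO. It averaged 15.1 ± 7.49 CPM in KO VAT and 7.07 ± 2.24 CPM in WT VAT (SD, n = 4 each), a difference of 1.09 ± 0.27 (adjusted p = 0.0319). Of all tested genes 4.10% were called in this comparison, 2.84% higher and 1.26% lower in KO. The lowest KO VAT library had 9.74 CPM, against 9.53 CPM in the highest WT VAT library, so the groups separated by a narrow gap. KO VAT replicate 4 stood at 26.2 CPM, and without it the difference was 0.69 and no longer called (adjusted p = 0.117). The call was also lost without WT VAT replicate 1, at 0.99 (adjusted p = 0.106), or replicate 4, at 0.95 (adjusted p = 0.104), and when only the 2 VAT groups were fitted (adjusted p = 0.0854).

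Of 11 epithelial genes 7 stood highest in the same KO VAT replicate 4, among them Epcam, Cldn4 and Krt5. Krt7 peaked in KO VAT replicate 3, Wfdc2 in WT VAT replicate 3 and Krt14 in WT VAT replicate 4. The share of all tested genes that stood highest in KO VAT replicate 4 is not given here, so the 7 cannot be set against it. Over all tested genes KO VAT replicate 4 lay farther from the other KO VAT libraries than those did from each other. Epcam, an epithelial adhesion gene, was at 1.87, 5.48, 5.54 and 14.5 CPM in KO VAT, against 2.17, 6.35, 6.73 and 3.66 CPM in WT VAT. The tight junction gene Cldn4 was at 0, 0.132, 2.51 and 8.07 CPM in KO VAT, against 0.0650, 2.57, 0.0990 and 0.0194 CPM in WT VAT. The basal keratin gene Krt5 was at 0, 0.0220, 1.87 and 5.23 CPM in KO VAT, against at most 0.0434 CPM in WT VAT. The keratin gene Krt14 averaged 7.39 ± 3.69 CPM in KO VAT and 16.4 ± 5.94 CPM in WT VAT (-1.16 ± 0.32, adjusted p = 0.0511). The endothelial cadherin gene Cdh5 was also highest in KO VAT replicate 4, at 15.1 CPM. It was at 3.35 to 8.11 CPM in the other KO VAT libraries and 0.778 to 9.09 CPM in WT VAT. The endothelial list as a whole was not highest there. Its 13 genes summed to 179 CPM in KO VAT replicate 4, against 180, 177 and 199 CPM in replicates 1, 2 and 3. Pecam1 was at 1.92 CPM in KO VAT replicate 4 and 2.23 CPM in replicate 1. Summed over the 11 epithelial genes the level ran from 45.8 to 119.95 CPM in KO VAT and from 56.4 to 95.3 CPM in WT VAT. In SAT the sum was 4.25 to 6.66 CPM in KO and 7.35 to 8.17 CPM in WT. Krt7 was the largest part of the sum in every VAT library, at 34.1, 35.2, 65.2 and 57.7 CPM in KO VAT. It was at 37.7, 28.9, 47.7 and 63.9 CPM in WT VAT, and at most 0.638 CPM in SAT. Like the mesothelial genes Msln and Upk3b, Krt7 was thus close to 0 in SAT. The milk protein gene Csn2 was at 0 in all 16 libraries. Of the 8 epithelial genes tested edgeR called 0 between KO VAT and WT VAT, with 2 at an unadjusted p under 0.05, as were 17.4% of all tested genes, DESeq2 called 0 and limma-voom 1. Sums over 8 red cell genes ran from 66.2 to 151 CPM in KO VAT and from 49.8 to 72.5 CPM in WT VAT. The 151 CPM belonged to KO VAT replicate 3, and KO VAT replicate 4 stood at 70.4 CPM. Of the 5 red cell genes tested edgeR called 0 between KO VAT and WT VAT, where 4.10% of all tested genes were called. These epithelial genes other than Epcam, and Cdh5, Tek and Rgs5, were named after their values were seen. Of 12 adipocyte genes 4 were called higher in KO VAT, among them Adipoq at 48.4, 65.9, 36.7 and 63.0 CPM in KO VAT, against 18.5, 15.7, 19.1 and 22.5 CPM in WT VAT (1.5 ± 0.24, adjusted p = 0.00124). Their part in the Cd24a difference was not tested.

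**Figure D4:**
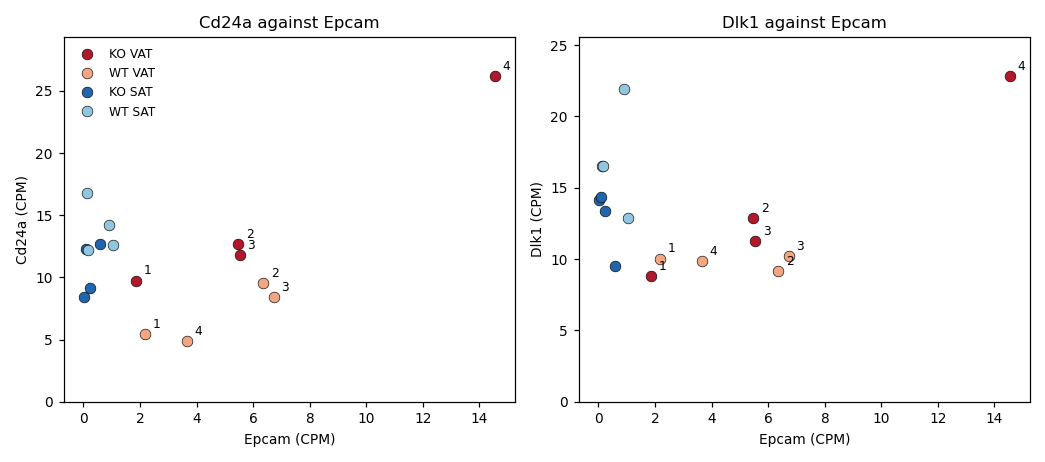
CPM of Cd24a (left) and Dlk1 (right) against CPM of the epithelial gene Epcam, 1 point per library, coloured by group, with replicate numbers on the VAT points. KO VAT replicate 4 lies far from the rest in both panels, at 14.5 CPM of Epcam with 26.2 CPM of Cd24a and 22.8 CPM of Dlk1.

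The remaining 9 members were not called between KO VAT and WT VAT, with log2 differences from -0.21 to 0.50. Dlk1 averaged 14.0 ± 6.14 CPM in KO VAT and 9.82 ± 0.470 CPM in WT VAT (0.50 ± 0.23, adjusted p = 0.264, 95% interval 0.02 to 0.99), with overlap. Without KO VAT replicate 4, at 22.8 CPM, the Dlk1 difference was 0.16 (adjusted p = 0.791). Ly6a averaged 350.1 ± 20.8 CPM in KO VAT and 405 ± 26.4 CPM in WT VAT, and Cd34 734 ± 65.7 CPM in KO VAT and 821 ± 18.1 CPM in WT VAT. In both genes every KO VAT library lay below every WT VAT library, at -0.21 ± 0.15 for Ly6a (adjusted p = 0.517) and -0.16 ± 0.09 for Cd34 (adjusted p = 0.404). With Cd24a, 3 members separated without overlap in VAT, as did 13.7% of all tested genes. Thy1 averaged 137 ± 33.5 CPM in KO VAT and 119 ± 5.57 CPM in WT VAT (0.21 ± 0.14, adjusted p = 0.466). Ly6c1, Itgb1, Eng, Nt5e and Cd9 differed by between -0.12 and 0.10. Their 95% intervals spanned at most -0.42 to 0.39.

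Whether the KO effect differed between depots was tested as the KO minus WT difference in VAT minus that in SAT. No member was called by edgeR, where 0.267% of all tested genes were, 0.131% upward and 0.137% downward. At an unadjusted p under 0.05 there were 3, Cd24a at 1.49 ± 0.39 (adjusted p = 0.0946), Cd34 at -0.45 ± 0.13 (adjusted p = 0.128) and Dlk1 at 0.91 ± 0.32 (adjusted p = 0.198), where 16.0% of all tested genes passed that mark. Cd24a and Dlk1 were higher in KO than in WT on average in VAT and lower in SAT. Cd34 was lower in all KO VAT libraries than in any WT VAT library and higher in all KO SAT libraries than in any WT SAT library. DESeq2 called 2 of these differences, Cd24a (adjusted p = 0.00963) and Cd34 (adjusted p = 0.0283), and limma-voom called 0. The share of all tested genes that DESeq2 called is not given here. Of 164 genes in the 8 lists below, each counted once per list, DESeq2 called 14 and edgeR 0. The KO effect of Cd24a in VAT was therefore not shown by the main test to differ from that in SAT.

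Other genes around the members were counted in lists, and the genes named from them are among the 3 with the smallest p of their list. Of these, the genes named for a KO effect were limited, after their values were seen, to those whose call held without any 1 library. Beside the list counts, 2.84% of all tested genes were called higher and 1.26% lower in KO VAT. In KO SAT the shares were 3.46% and 2.43%. For VAT against SAT they were 23.3% higher and 20.0% lower in KO, and 19.1% and 17.6% in WT. An unadjusted p under 0.05 between genotypes was met by 17.4% in VAT and 22.5% in SAT. No list was tested against these shares. Of 30 other surface antigens of fat or mesenchymal stromal cells, all tested, 3 were higher and 0 lower in KO VAT, and 4 were higher and 2 lower in KO SAT. The medians were -0.04 and 0.08. Ngfr, the low-affinity nerve growth factor receptor, stood at 8.97 ± 2.37 CPM in KO VAT and 4.01 ± 0.761 CPM in WT VAT (1.16 ± 0.24, adjusted p = 0.0105). Ngfr was also higher in KO SAT than in WT SAT (0.97 ± 0.24, adjusted p = 0.0225), a call lost in 5 of 16 fits with 1 library left out. In SAT, the protein C receptor gene Procr fell to 284 ± 23.7 CPM in KO, against 472 ± 78.8 CPM in WT (-0.73 ± 0.12, adjusted p = 0.00154). The mesenchymal cadherin gene Cdh11 rose to 57.5 ± 10.2 CPM in KO SAT, against 27.5 ± 8.76 CPM in WT SAT (1.06 ± 0.21, adjusted p = 0.00518). Between depots 11 were higher and 13 lower in KO VAT than in KO SAT, and 13 were higher and 13 lower in WT VAT than in WT SAT. Dpp4, an antigen of interstitial fat progenitors, stood at 119 ± 37.8 CPM in KO VAT and 598 ± 61.5 CPM in KO SAT (-2.33 ± 0.16, adjusted p = 4.84e-09). WT levels were 141 ± 16.1 CPM in VAT and 465 ± 25.9 CPM in SAT (-1.72 ± 0.16, adjusted p = 1.76e-07). The stromal antigen gene Cd248 was lower in VAT too, at -1.29 ± 0.11 in KO (adjusted p = 5.57e-08) and -1.1 ± 0.11 in WT (adjusted p = 4.48e-07).

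Ly6a and Ly6c1 belong to the Ly6/uPAR family, of which 23 other genes were listed and 13 tested. In KO VAT 1 was higher and 1 lower, and in KO SAT 0 were higher and 3 lower. Ly6h, best known from brain, stood at 1.98 ± 0.650 CPM in KO VAT and 0.646 ± 0.0971 CPM in WT VAT (1.61 ± 0.33, adjusted p = 0.00913). Cd59a, which protects cells from complement, fell to 9.62 ± 0.769 CPM in KO SAT, against 17.8 ± 4.54 CPM in WT SAT (-0.88 ± 0.15, adjusted p = 0.00178). Between depots 5 were higher and 4 lower in KO VAT than in KO SAT, and 3 were higher and 5 lower in WT VAT than in WT SAT. Lypd1 was lower in VAT in both, at 1.89 ± 0.463 CPM in KO VAT and 7.25 ± 2.29 CPM in KO SAT, and at 1.17 ± 0.220 CPM in WT VAT and 8.30 ± 1.43 CPM in WT SAT. Of 10 genes listed around Cd34, namely CD34 relatives, other sialomucins and also selectins, 8 were tested and edgeR called 0 between genotypes in either depot. At an unadjusted p under 0.05 there were 0 in VAT and 2 in SAT, DESeq2 called 0 in VAT and 1 in SAT, and limma-voom 0 in both. Between depots 4 were higher and 2 lower in VAT in each genotype. The CD34 relative Podxl, which mesothelium also expresses, stood at 68.7 ± 20.6 CPM in KO VAT and 0.313 ± 0.163 CPM in KO SAT, and at 68.2 ± 26.3 CPM in WT VAT and 0.748 ± 0.277 CPM in WT SAT. The sialomucin gene Cd164 was lower in VAT, like Cd34, at -1.1 ± 0.10 in KO (adjusted p = 8.36e-08) and -0.62 ± 0.10 in WT (adjusted p = 6.69e-05).

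Among 24 integrin chains and integrin partners, all tested, 0 were higher and 1 lower in KO VAT, and 1 was higher and 0 lower in KO SAT. Itga11, a collagen receptor chain that pairs with the Itgb1 product, fell to 30.5 ± 5.43 CPM in KO VAT, against 54.6 ± 5.20 CPM in WT VAT (-0.84 ± 0.14, adjusted p = 0.00161). Between depots 9 were higher and 9 lower in KO VAT, and 9 were higher and 8 lower in WT VAT. The laminin receptor chain Itga3 stood at 28.7 ± 5.24 CPM in KO VAT and 4.84 ± 0.728 CPM in KO SAT (2.57 ± 0.21, adjusted p = 3.45e-08), and Itgb3, the chain of a vitronectin receptor, at 31.2 ± 4.89 CPM in KO VAT and 79.5 ± 7.70 CPM in KO SAT (-1.35 ± 0.10, adjusted p = 1.77e-08). Of 30 tetraspanins and CD9 partners 28 were tested. EdgeR called 0 in KO VAT, with 7 at an unadjusted p under 0.05, DESeq2 called 3 and limma-voom 1, and 1 was higher and 1 lower in KO SAT. Tspan4 fell to 44.2 ± 1.99 CPM in KO SAT, against 65.2 ± 7.93 CPM in WT SAT (-0.56 ± 0.08, adjusted p = 0.000462). Tspan6 rose to 23.5 ± 0.837 CPM in KO SAT, against 18.2 ± 1.48 CPM in WT SAT (0.37 ± 0.08, adjusted p = 0.00813). Between depots 12 were higher and 7 lower in KO VAT than in KO SAT, and 11 were higher and 5 lower in WT VAT than in WT SAT. Cd82, a tetraspanin that restrains cell migration, stood at 60.4 ± 7.65 CPM in KO VAT and 14.5 ± 0.613 CPM in KO SAT (2.06 ± 0.11, adjusted p = 3.87e-10), and at 71.8 ± 6.23 CPM in WT VAT and 17.7 ± 3.04 CPM in WT SAT (2.02 ± 0.11, adjusted p = 4.83e-10).

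Eng, Nt5e and Dlk1 act in signalling whose other parts were listed. Of 25 TGF-beta and BMP receptors, ligands and SMADs, 23 were tested. EdgeR called 0 in KO VAT, with 5 at an unadjusted p under 0.05, DESeq2 called 1 and limma-voom 0. In KO SAT 3 were higher, and each of these 3 calls was lost without 1 or more of the libraries taken singly. Between depots 7 were higher and 8 lower in KO VAT, and 9 were higher and 2 lower in WT VAT. The BMP receptor gene Bmpr1b stood at 8.04 ± 0.587 CPM in KO VAT and 1.15 ± 0.0642 CPM in KO SAT (2.80 ± 0.17, adjusted p = 1.01e-09). The ligand gene Tgfb3 stood at 212 ± 14.2 CPM in KO VAT and 111 ± 6.50 CPM in KO SAT (0.93 ± 0.08, adjusted p = 3.13e-08). Around Nt5e, 20 genes of nucleotide breakdown and adenosine handling were listed and 19 tested, of which 8 were higher and 4 lower in KO VAT than in KO SAT, and 6 were higher and 5 lower in WT VAT than in WT SAT. Enpp1, which splits ATP outside the cell into AMP, the substrate of CD73, stood at 13.6 ± 2.14 CPM in KO VAT and 1.42 ± 0.0351 CPM in KO SAT (3.25 ± 0.17, adjusted p = 1.89e-10). In WT, Enpp1 stood at 12.2 ± 1.52 CPM in VAT and 1.37 ± 0.373 CPM in SAT (3.14 ± 0.17, adjusted p = 3.49e-10). The adenosine receptor gene Adora2b was lower in VAT, at 5.02 ± 0.0664 CPM in KO VAT and 18.3 ± 3.08 CPM in KO SAT (-1.86 ± 0.13, adjusted p = 4.31e-09). Between genotypes 1 of the 19 was lower in KO VAT and 1 lower in KO SAT.

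Of 21 genes of the imprinted Dlk1 domain and of Notch signalling, 19 were tested. EdgeR called 0 in KO VAT, with 5 at an unadjusted p under 0.05, DESeq2 called 1 and limma-voom 0, while 2 were higher and 1 lower in KO SAT. Adam17, the protease that sheds DLK1, rose to 155 ± 9.57 CPM in KO SAT, against 116 ± 4.11 CPM in WT SAT (0.42 ± 0.08, adjusted p = 0.0043). Rian, a noncoding gene of the same imprinted domain as Dlk1, rose to 421 ± 32.9 CPM in KO SAT, against 286 ± 38.3 CPM in WT SAT (0.56 ± 0.12, adjusted p = 0.00921). Dlk1 itself was at 12.8 ± 2.26 CPM in KO SAT and 17.0 ± 3.73 CPM in WT SAT, without a call. Between depots 8 were higher and 6 lower in KO VAT, and 7 were higher and 5 lower in WT VAT. Sox9, a Notch target in several tissues, stood at 70.4 ± 13.7 CPM in KO VAT and 9.24 ± 2.26 CPM in KO SAT (2.93 ± 0.18, adjusted p = 1.04e-09). In the test of whether the KO effect differed by depot, edgeR called 0 of 164 genes in these 8 lists. Each gene was counted once per list, and 0.267% of all tested genes were called. At an unadjusted p under 0.05 there were 40, where 16.0% of all tested genes passed that mark. DESeq2 called 14 of the 164 and limma-voom 0.

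For 6 members whose group means spanned at least 1 on the log2 scale, the 3 most alike genes were sought among 10233 with a mean of at least 5 CPM, by the root mean square difference of their centred log2 means over the 4 groups. Ly6a lay nearest to Cgref1 (0.04), Mmp2 (0.05) and Sema3b (0.06), and Ly6c1 to Syk (0.04), Bmp7 (0.04) and Cyp2f2 (0.06). Thy1 lay nearest to Ptx3 (0.03), Slc38a4 (0.05) and Mcf2l (0.06). Cd34 lay nearest to Kdelc2 (0.02), Disp1 (0.03) and Sdk1 (0.03), and Nt5e to Plxna2 (0.02), Rbbp8 (0.03) and Ccr2 (0.04). Cd24a had no such close match, since Nptx2 (0.19), Lrrc27 (0.20) and Slc1a3 (0.20) were its nearest. Each measure rests on 4 group means.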

How the data were processed

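RNA sequencing libraries of 16 samples were compared, 4 in each of KO VAT, WT VAT, KO SAT and WT SAT, grouped by the labels. The 10 genes and all gene lists were chosen with earlier results of these data known. The authors deposited raw counts per gene and a second table whose unit is a normalized signal, each count divided by 1 factor per library (largest relative deviation 4.94e-10 for counts above 50), which served only to recover those factors. Per the labels, RNA was isolated with an RNeasy Micro kit, libraries were made with a NEBNext Ultra kit and sequenced as single reads of 75 bases. STAR, FastQC, featureCounts, DESeq and mm10 are named in the submitters' processing notes. Their versions, the annotation, the strand setting and the treatment of multimapping reads are not stated there or in the labels.

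Of 38720 lines 16842 passed edgeR's filterByExpr. Counts were fitted with edgeR 4.0.16 (R 4.3.3), TMM factors, 1 coefficient per group over all 16 libraries and the quasi-likelihood test, with 12 residual degrees of freedom. P-values were adjusted by Benjamini-Hochberg over all genes tested, and genes were called at an adjusted p under 0.05. Standard errors are the log2 fold change divided by the root of F. Intervals are 95% intervals. CPM used the TMM-scaled totals, and lengths were unions of GENCODE vM21 exons. The fit was tested on simulated data. From each list up to 3 genes with the smallest p in a comparison could be named. Alternatives were DESeq2 1.42.0, limma-voom (limma 3.58.1), DESeq2 size factors, no filter, only the 2 groups compared, a replicate block and leaving out each library. No pair of libraries agreed within sampling noise (lowest chi-square per degree of freedom 12.6). The highest values, 101 to 113, were those of the pairs with WT SAT replicate 3, against 19.7 to 24.0 for the other WT SAT pairs.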

Additional observations from a re-analysis of the deposited data

Results flagged for a closer look

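Cd9 in WT SAT had 1 library far from the others. Replicate 1 stood at 99.5 CPM, below the other 3 WT SAT libraries at 127 to 128 CPM, and its gap to the next was 0.955 of the whole range, above Dixon's 95% critical value for 4 samples. It was 1 of 40 sets of 4 libraries looked at, and chance alone marks about 1 in 20.

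Cd34 differed between KO and WT in opposite directions in the depots, though neither difference was called (-0.16, adjusted p = 0.404 in VAT and 0.29, adjusted p = 0.0787 in SAT). Every KO VAT library lay below every WT VAT library, and every KO SAT library lay above every WT SAT library. The difference between the KO effects was -0.45 ± 0.13, which edgeR did not call (adjusted p = 0.128).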

How the results depend on the processing

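Between depots the count of members called in WT was 9 in every setting, and in KO it ran from 6 to 7 when 1 library was left out. Between KO SAT and WT SAT the count of 0 became 1 under DESeq2 (Cd34, adjusted p = 0.0258) and ran from 0 to 1 with 1 library left out. Between KO VAT and WT VAT the count of 1 became 0 when only the 2 groups were fitted, where Cd24a was at 1.11, and ran from 0 to 1 with 1 library left out. DESeq2 and limma-voom kept the Cd24a call (adjusted p = 0.00239 and 0.0412). For the difference between KO effects DESeq2 called 2 members, and its share over all tested genes is not given here. An alternative chosen after seeing the data left out KO VAT replicate 4 and WT SAT replicate 3, giving counts of 1 in SAT (Cd34, adjusted p = 0.0203) and 0 in VAT (Cd24a 0.69, adjusted p = 0.0759). The causes were not tested.

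Some uncalled log2 differences changed sign with 1 library left out. Their ranges were -0.19 to 0.15 for Ly6a, -0.10 to 0.19 for Ly6c1 and -0.016 to 0.11 for Itgb1 (KO over WT in SAT), -0.17 to 0.015 for Ly6c1 and -0.00069 to 0.15 for Nt5e (KO over WT in VAT), -0.082 to 0.046 for Cd9 (VAT over SAT in WT), -0.23 to 0.28 for Dlk1 (VAT over SAT in KO), and -0.28 to 0.0096 for Ly6c1 and -0.16 to 0.083 for Thy1 (difference between KO effects). Without both libraries Ly6a and Itgb1 were at 0.15 and -0.016 in SAT, Ly6c1 at 0.0155 in VAT and Dlk1 at -0.23.

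Replicate numbers were not taken to pair the libraries, since the labels do not tie them: correlations of same-numbered libraries ran from -0.16 to 0.176 over 24 pairs, 4 were over 0.1, and 1 of 16 libraries correlated best with its own number. Between WT VAT and WT SAT they were 0.144, 0.119 and 0.113 for replicates 1 to 3 and -0.041 for replicate 4, and whether these depots came from the same mice was not tested. With the replicate block the count in VAT became 0 (Cd24a 1.08, adjusted p = 0.0568). Of 40 per-length ranks 30 held with the longest transcript, 40 without TMM and 38 to 40 with 1 library left out, while the levels moved by more than 1 SD for 34 of 40 with the longest transcript and 22 of 40 without TMM. With 252 to 1116 counts per library, Cd24a was limited by the spread between libraries more than by depth.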
